A study of Mus musculus with 6 samples.

Results

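The urea cycle genes examined here were 10 of the 24411 gene symbols in a table of liver RNA-seq counts. They were taken by name and comprise the 6 enzymes that make urea or switch its synthesis on (Nags, Cps1, Otc, Ass1, Asl and Arg1), the mitochondrial ornithine and aspartate/glutamate carriers Slc25a15 and Slc25a13, and Glud1 and Got2, which feed nitrogen into the cycle. All 10 had counts and passed the filter on low counts, and the rule that lists them uses no measured value. The livers came from 3 p62+/+ mice and 3 p62S351E/+ mice at postnatal day 19. In p62S351E/+ mice, 1 allele of Sqstm1, the gene encoding the autophagy receptor p62, has Glu in place of Ser351, a replacement that mimics phosphorylation of this serine. The mutation was made by prime editing in C57BL/6N-derived embryonic stem cells, and the line was founded with the sperm of a single chimeric male, so it goes back to 1 editing event. The mutant animals are described as poorly nourished, and in these livers genotype and feeding state cannot be told apart. The question put to the data was whether the mRNAs of ammonia disposal differ between the genotypes.

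Urea synthesis is the main route by which mammals dispose of ammonia, and the complete cycle runs in hepatocytes, mostly those around the portal veins. In the mitochondrial matrix, N-acetylglutamate made by Nags switches on Cps1, which joins ammonia and bicarbonate to carbamoyl phosphate, and Otc passes the carbamoyl group to ornithine. The citrulline formed leaves for the cytosol, where Ass1 adds aspartate, Asl splits the product into arginine and fumarate, and Arg1 releases urea and ornithine.

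All values were obtained from the estimated (expected) read counts per gene deposited by the authors. Ribosomal RNA had been depleted, and even so 3 genes, Rn45s, Lars2 and Mir6236, took most of the 8696712 to 10341622 counts per mouse. All other genes together had from 271473 to 299487 counts in p62+/+ livers against 134911, 231631 and 315436 in p62S351E/+ livers 1, 2 and 3, so p62S351E/+ mouse 1 gave the least precise values. Normalized counts are the deposited counts scaled by the edgeR TMM factors. Of 10 hepatocyte markers, all 10 were detected in every liver. Transcripts of 10 brain markers such as Snap25 and Gfap summed to between 1746 and 1786 normalized counts in the p62+/+ mice and to 1676 in p62S351E/+ mouse 3, but to 5.71 and 7.56 in p62S351E/+ mice 1 and 2, in which Snap25, Gfap, Camk2a and Gad1 were at 0. Because p62S351E/+ mouse 3 thus stood with the p62+/+ mice, the results are given with all mice, without p62S351E/+ mouse 3 and for that mouse alone. The edited gene itself, Sqstm1, had 79.1 ± 6.78 normalized counts in p62+/+ livers against 97.2 ± 7.44 in p62S351E/+ livers (SD, n = 3; adjusted p = 0.498, log2 fold change 0.30), which checks no label because counts per gene do not show a changed codon.

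Most urea cycle mRNAs had higher mean levels in p62S351E/+ livers, but none of the 10 passed the threshold for a differentially expressed gene. Arg1, Slc25a13 and Cps1 showed the largest differences, 1.92- to 2.28-fold above the p62+/+ level, whereas Nags and Glud1 had nearly the same mean in both genotypes. A gene was called at an adjusted p (Benjamini-Hochberg, over the 5945 genes tested by edgeR's quasi-likelihood test) below 0.05 with a log2 fold change beyond 1 in either direction. By this rule 0 of 10 members were higher and 0 were lower, where 0.841% of all genes tested were called higher and 0.0841% lower. At an unadjusted p below 0.05, 5 of 10 members were counted (Arg1, Slc25a13, Cps1, Asl and Slc25a15), against 14.6% of all genes. DESeq2 counted 3 members and limma-voom 5. The share of all genes was obtained only for the edgeR fit of all mice without covariates. Counts by unadjusted p from other fits, here and below, therefore cannot be set against a share. In 5 of 10 members every p62S351E/+ mouse lay above every p62+/+ mouse, and in 0 below, whereas 12.0% of all genes tested lay above without overlap and 14.7% below. Fitted log2 fold changes were above 0 for 9 of 10 members, with a median of 0.58, whereas 48.0% of all genes were above 0 and their median was -0.03. When libraries were scaled by their total counts alone, the median of all genes moved to -0.68 and that of the members to -0.12, and 4 of 10 members (Cps1, Arg1, Slc25a13 and Slc25a15) were above 0.

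Ass1 shares much of its sequence with a pseudogene and is described first. Ass1 (argininosuccinate synthase, chr2:31470207-31520672, mm10, plus strand, 16 exons) had 0 counts in p62+/+ mice 1 and 2, 59.1 counts in p62+/+ mouse 3, 0 counts in p62S351E/+ mouse 1 and 19.7 counts in each of p62S351E/+ mice 2 and 3. These are 0, 3 or 1 times the same value of 19.7 counts. A 0 here sets no upper bound on reads from the stretches of Ass1 that match 2 genes, since these could be listed under either. A processed pseudogene on another chromosome, Gm5424 (chr10:62071123-62072362, plus strand, a single exon of 1240 bases), had 466, 490 and 375 counts in p62+/+ livers against 278, 603 and 634 in p62S351E/+ livers. Gm5424 aligned without gaps to positions 203 to 1442 of the Ass1 reference transcript (1696 bases), counted from 1 at its 5′ end, and thereby covered the whole coding sequence (203 to 1441). The 2 sequences were identical at 1234 of 1240 positions (99.5%), and the 6 substitutions, with the Ass1 base first, were T601C, T631C, A722T, G858C, T1213C and C1345T. The reads were 75 bases long, and of the 1165 stretches of that length in the coding sequence 760 (65.2%) were identical in both genes. Over the whole Ass1 transcript 761 of 1622 stretches (46.9%) were shared with Gm5424. The parts of Ass1 outside positions 203 to 1442 have no counterpart in Gm5424, so sharing does not cover reads from them under GENCODE M21. Why livers with 0 counts for Ass1 had none from these parts either was not tested, and the annotation used for counting is not known. The stretch from 591 to 665, of read length, holds 2 of the substitutions and shows how little separates the genes (both strands as transcribed, GENCODE M21; capitals mark the bases that differ):
Ass1: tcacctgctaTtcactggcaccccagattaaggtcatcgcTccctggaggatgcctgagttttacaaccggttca
Gm5424: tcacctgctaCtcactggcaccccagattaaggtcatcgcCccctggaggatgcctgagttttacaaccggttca

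Together Ass1 and Gm5424 had 466, 490 and 434 counts in p62+/+ livers against 278, 623 and 654 in p62S351E/+ livers, whole numbers in all 6 livers although the single values were fractions in 3 of them. Between 0% and 13.6% of each sum was listed under Ass1. The counts of the pair are shown by mouse in the stacked plot. How many of these reads came from either gene could not be resolved from the counts, and the Ass1 row alone had a fitted log2 fold change of -0.25 with a 95% interval of -5.13 to 4.63, which carries no information on direction.

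**Figure D1:**
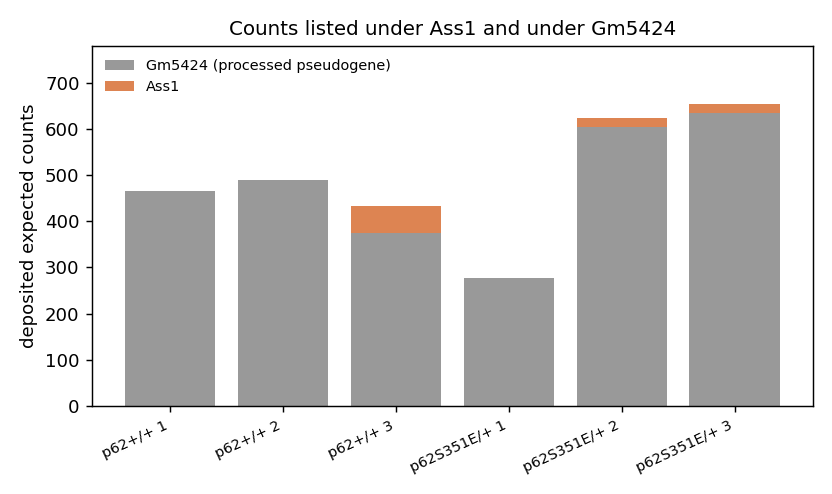
Deposited expected counts (y axis, linear, from 0) listed under Ass1 (orange) and under its processed pseudogene Gm5424 (grey) in each of the 6 livers (x axis). Ass1 is at 0 in 3 livers and never above 13.6% of the stacked sum.

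The other members were less exposed to such sharing. No stretch of 75 bases of the Cps1, Otc, Asl, Arg1, Slc25a15 or Slc25a13 transcript occurred in a transcript of another gene. Got2 shared 35.2% of its stretches with the pseudogenes Gm10874, Gm45760 and Got2-ps1, Nags 19% with Gm11586, and Glud1 5.82% with Glud-ps and Gm43444, so the values of these 3 are less certain.

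Among the mitochondrial steps, Nags (N-acetylglutamate synthase, chr11:102145513-102149477) was the scarcest member. It had 8.83, 16.3 and 6.91 normalized counts in p62+/+ livers against 11.4, 13.9 and 7.75 in p62S351E/+ livers, from only 6 to 21 reads per liver. The groups overlapped throughout, and the log2 fold change of 0.02 (95% interval -1.00 to 1.03) is too wide to say more. Cps1 (carbamoyl phosphate synthetase, the entry step of the cycle, chr1:67123026-67231259, 38 exons) had 1180, 1049 and 937 normalized counts in p62+/+ livers against 2156, 2357 and 1562 in p62S351E/+ livers. All 3 p62S351E/+ livers were above all 3 p62+/+ livers, and the lowest of them was p62S351E/+ mouse 3. The difference was 1.92-fold (log2 fold change 0.94, standard error 0.24, 95% interval 0.40 to 1.48) and did not pass the test over all genes (adjusted p = 0.133). Otc (ornithine transcarbamylase, chrX:10252305-10321024) had 56.2, 66.8 and 70.0 normalized counts in p62+/+ livers against 70.5, 134.8 and 60.4 in p62S351E/+ livers. Only p62S351E/+ mouse 2 stood apart, and the groups overlapped (log2 fold change 0.46, standard error 0.32, adjusted p = 0.510).

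In the cytosol, the sum of Ass1 and Gm5424 had 374, 380 and 375 normalized counts in p62+/+ livers against 529, 785 and 506 in p62S351E/+ livers. The p62+/+ livers were nearly equal and all below the p62S351E/+ livers, of which mouse 2 was highest. The sum was 1.61-fold higher (log2 fold change 0.69, standard error 0.23, adjusted p = 0.255), and with it in place of Ass1 the members without overlap numbered 6 of 10. Asl (argininosuccinate lyase, chr5:130011258-130029247) had 72.2, 88.5 and 75.1 normalized counts in p62+/+ livers against 123.8, 134.8 and 109.2 in p62S351E/+ livers. The groups did not overlap and the members of each lay close together (log2 fold change 0.64, standard error 0.20, adjusted p = 0.231). Arg1 (arginase 1, which releases urea, chr10:24915221-24927484) had 110, 143 and 131 normalized counts in p62+/+ livers against 288, 380 and 208 in p62S351E/+ livers. Again p62S351E/+ mouse 2 was highest and p62S351E/+ mouse 3 lowest of its group, still above every p62+/+ liver. Arg1 had the largest difference of the 10 genes, 2.28-fold (log2 fold change 1.19, standard error 0.26, 95% interval 0.58 to 1.79), with an adjusted p of 0.0991 from edgeR. By limma-voom, where 2.20% of all genes were called higher, Arg1 alone of the members was called (log2 fold change 1.16, adjusted p = 0.0106). Cps1 (0.93, adjusted p = 0.0353) and Slc25a13 (0.97, adjusted p = 0.0338) missed only the fold threshold by limma-voom.

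Of the mitochondrial carriers, Slc25a15 (the ornithine/citrulline exchanger, chr8:22375551-22398597) had 40.9, 24.1 and 27.6 normalized counts in p62+/+ livers against 55.2, 73.1 and 39.5 in p62S351E/+ livers. p62+/+ mouse 1 exceeded p62S351E/+ mouse 3, so the groups overlapped by a narrow margin (log2 fold change 0.85, standard error 0.31, adjusted p = 0.278). Slc25a13 (citrin, which exports the aspartate used by Ass1, chr6:6041218-6217173) had 32.1, 33.4 and 32.8 normalized counts in p62+/+ livers against 87.6, 59.2 and 53.5 in p62S351E/+ livers. It was the only 1 of the 10 members in which p62S351E/+ mouse 1 was the highest liver; that value rests on 46 counts. The p62+/+ livers were nearly equal, and the difference was 2.02-fold (log2 fold change 1.02, standard error 0.25, 95% interval 0.46 to 1.58, adjusted p = 0.120).

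The genes that feed nitrogen in showed smaller differences. Glud1 (glutamate dehydrogenase, which frees ammonia from glutamate, chr14:34310727-34345265) had 231, 212 and 179 normalized counts in p62+/+ livers against 219, 265 and 183 in p62S351E/+ livers. The ranges were nearly the same, and the interval of the log2 fold change (0.10, 95% interval -0.41 to 0.61) stayed below 1. Got2 (mitochondrial aspartate aminotransferase, chr8:95864134-95888547) had 72.2, 70.6 and 75.1 normalized counts in p62+/+ livers against 100.9, 137.3 and 75.9 in p62S351E/+ livers. Its groups were only just apart, since p62S351E/+ mouse 3 was level with the p62+/+ livers (log2 fold change 0.52, standard error 0.25, adjusted p = 0.371).

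**Figure D2:**
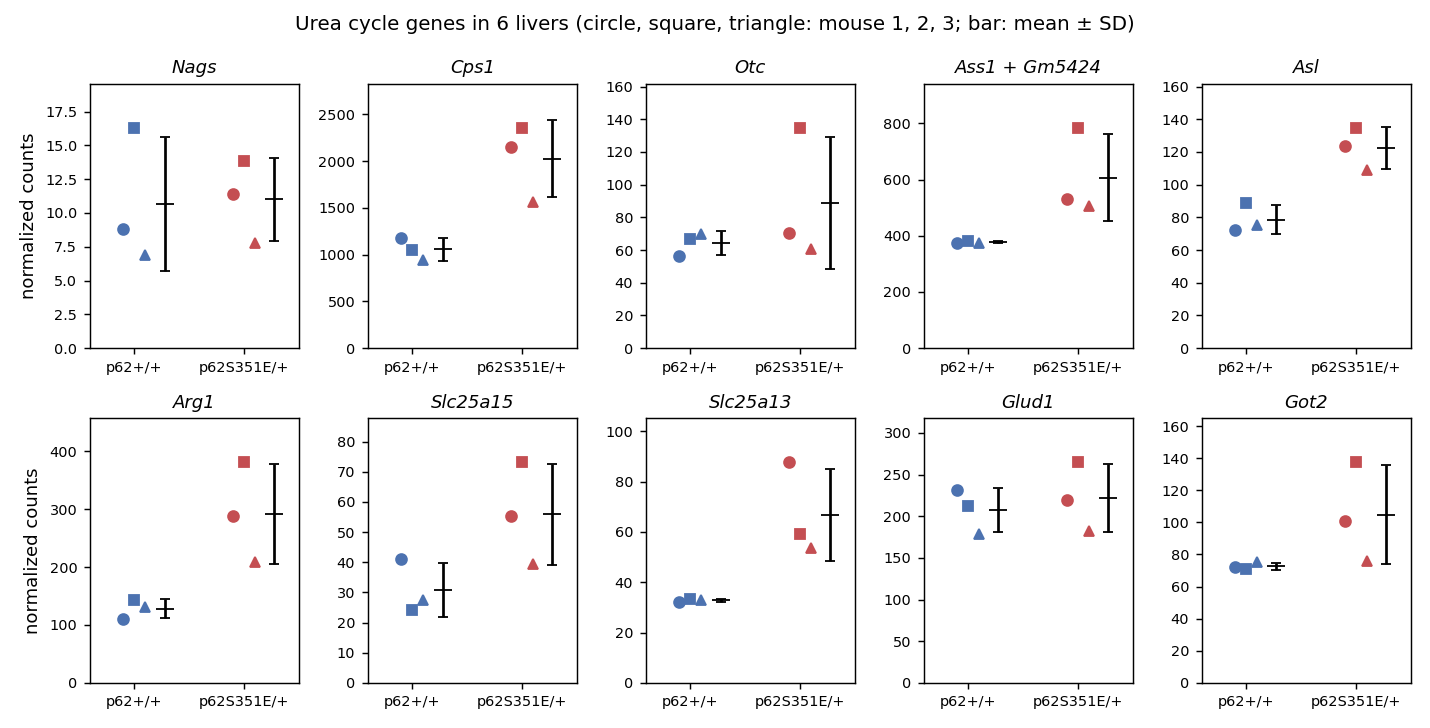
Normalized counts (y axes, linear, from 0, a scale of its own in each panel) of the 10 urea cycle genes in p62+/+ (blue) and p62S351E/+ (red) livers, Ass1 being summed with Gm5424; circle, square and triangle are mice 1, 2 and 3, and the black bar is the mean ± SD (n = 3). The red points lie above all blue points for Cps1, Ass1 + Gm5424, Asl, Arg1, Slc25a13 and, narrowly, Got2.

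Per kilobase of transcript, a scale on which genes can be compared, Cps1 and the sum of Ass1 and Gm5424 were highest. The rank of the sum cannot be credited to Ass1, since the origin of its reads could not be resolved. In p62+/+ livers the highest level was that of Ass1 and Gm5424 together, 222 ± 1.98 normalized counts per kb of the Ass1 transcript, followed by Cps1 at 190 ± 21.9 and Arg1 at 86.7 ± 11.3 (SD, n = 3). Their ranges did not overlap (220 to 224, 169 to 212 and 74.4 to 96.7). In p62S351E/+ livers Cps1 (365 ± 74.4) and the Ass1 and Gm5424 sum (358 ± 91.1) could not be ordered, since their ranges of 281 to 424 and 299 to 463 overlapped. Glud1 came after Arg1 in both genotypes, at 61.1 ± 7.81 and 65.5 ± 12.1, and Arg1 was 198 ± 58.3 in p62S351E/+ livers. Asl, Got2 and Otc followed in p62+/+ livers at 32.6, 28.7 and 27.7, where the range of Otc overlapped with both others. The carriers Slc25a13 and Slc25a15 (10.5 and 9.0) and Nags (5.27) were lowest, with Slc25a15 overlapping its neighbours on either side. By their means the members had the same order in both genotypes apart from the top pair.

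Summed, the members with Gm5424 had 2177, 2084 and 1910 normalized counts in p62+/+ livers against 3641, 4340 and 2807 in p62S351E/+ livers (means 2057 ± 136 and 3596 ± 768, SD, n = 3). Every p62S351E/+ liver was above every p62+/+ liver. Cps1 made up 49.1% to 59.2% of the sum in each liver, so this total mostly follows that gene. As a share of all counts outside Rn45s, Lars2 and Mir6236, before any other scaling, the members with Gm5424 took 0.912%, 0.896% and 0.814% in p62+/+ livers against 1.42%, 1.49% and 1.15% in p62S351E/+ livers. On both scales p62S351E/+ mouse 3 was the nearest to the p62+/+ livers.

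This ordering held across the single genes. Relative to the p62+/+ mean of each gene, with Ass1 taken as its sum with Gm5424, the median over the members was a log2 ratio of 0.57 in p62S351E/+ mouse 1, 0.98 in mouse 2 and 0.39 in mouse 3. All 10 members were above the p62+/+ mean in mice 1 and 2, and 7 of 10 in mouse 3, where Nags, Otc and Glud1 were below it. For p62S351E/+ mouse 3 alone against the p62+/+ mice, the log2 fold changes by edgeR were 0.71 for Arg1 (adjusted p = 0.0938), 0.72 for Slc25a13, 0.58 for Cps1, 0.48 for Asl, 0.44 for the sum of Ass1 and Gm5424, 0.37 for Slc25a15, 0.07 for Got2, -0.08 for Otc, -0.17 for Glud1 and -0.46 for Nags. None of the members was called there (0.949% of all genes were called higher), and 4 had an unadjusted p below 0.05 (Arg1, Cps1, Slc25a13 and Asl). The single mouse is assumed in that fit to vary as the p62+/+ mice did.

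Without p62S351E/+ mouse 3 the calls changed. Arg1 (log2 fold change 1.38, adjusted p = 0.000662), Cps1 (1.10, adjusted p = 0.0016), Slc25a13 (1.15, adjusted p = 0.00564) and Slc25a15 (1.06, adjusted p = 0.0189) were then called higher by edgeR. That is 4 of 10 members, where 5.21% of all genes tested were called higher. The genotypes in that comparison also differed in the brain transcripts given above and in Xist, given below. These differences and genotype cannot be told apart there. With all 6 mice and the summed brain markers as a covariate, the median over the members was 0.21 and 0 of 10 were called by edgeR. An unadjusted p below 0.05 was reached by 3 (Arg1, Cps1 and Slc25a13), a count with no share of all genes beside it. Arg1 then had a log2 fold change of 0.71 (adjusted p = 0.671) and Cps1 of 0.56, near the 0.71 and 0.58 of p62S351E/+ mouse 3 alone. The brain markers set p62S351E/+ mice 1 and 2 apart from all other mice. The genotype difference in this fit therefore rests almost wholly on mouse 3, and the fit is no separate test. Xist, which is transcribed in female cells, had 70.8, 1505 and 1071 deposited counts in p62+/+ livers and 1, 0 and 1537 in p62S351E/+ livers, so p62S351E/+ mouse 3 differed from its group in this too. With Xist as a covariate the median over the members was 0.31 and 0 of 10 were called by edgeR. An unadjusted p below 0.05 was reached by 4 (Arg1, Asl, Cps1 and Slc25a13), again with no share of all genes beside it. Since Xist was lowest in p62S351E/+ mice 1 and 2, genotype and Xist are only partly separable in this fit.

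**Figure D3:**
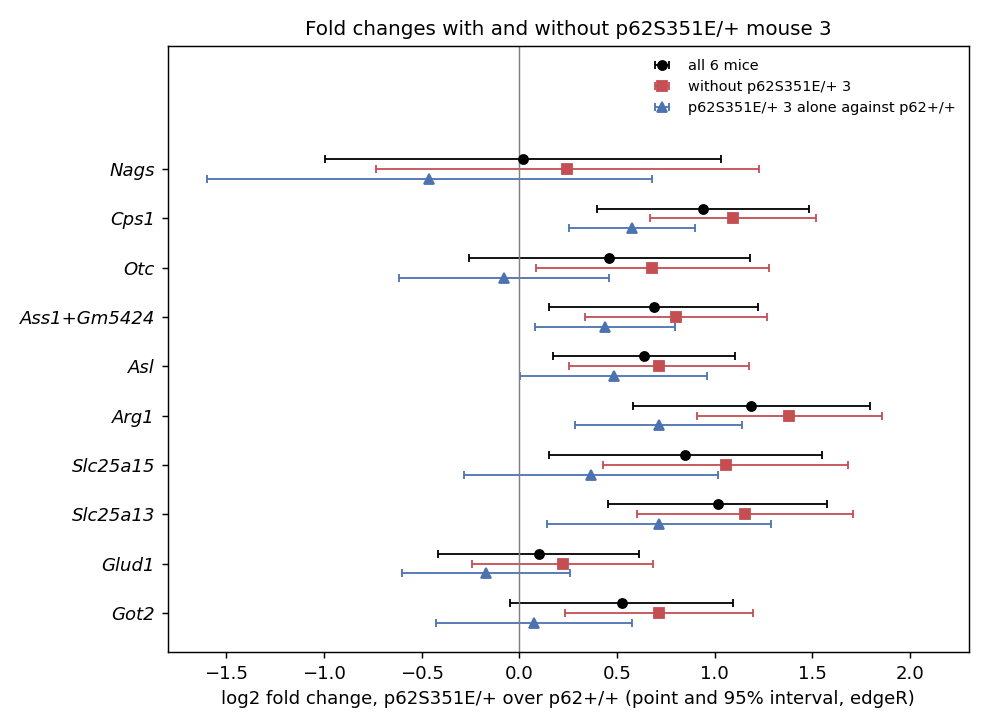
Log2 fold changes (x axis, p62S351E/+ over p62+/+; point and 95% interval from edgeR) of the urea cycle genes (rows) with all 6 mice (black circles), without p62S351E/+ mouse 3 (red squares) and for p62S351E/+ mouse 3 alone against the 3 p62+/+ mice (blue triangles). The points of mouse 3 are the lowest of the 3 for every gene, and 7 of the 10 stay above 0, all but Nags, Otc and Glud1.

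Genes that mark hepatocytes were also compared. The 10 markers (Alb, Apoa1, Apoa2, Ttr, Tat, Tdo2, Hpd, Fgb, Fgg and Serpinc1) summed to between 10013 and 10794 normalized counts in p62+/+ mice and to between 10817 and 23637 in p62S351E/+ mice. Fitted log2 fold changes were above 0 for 9 of these 10 markers, with a median of 0.42. Of the 10, 4 lay above without overlap, against 12.0% of all genes tested. Among these 4, Tdo2 was called higher, as were 0.841% of all genes tested. Per 100 deposited counts of these markers, the urea cycle genes with Gm5424 had 20.2, 20.8 and 17.7 counts in p62+/+ livers against 24.6, 18.4 and 25.9 in p62S351E/+ livers, and the groups overlapped. In bulk tissue a larger share of hepatocytes and more of an mRNA in each hepatocyte cannot be told apart. When the libraries were scaled to the summed hepatocyte markers instead, an alternative chosen after the data had been seen, the median over the urea cycle genes was 0.01. On that scale Nags, Otc, Glud1 and Got2 were below 0, and of the members only Arg1 had an unadjusted p below 0.05. Alb gave 7771 of the 13451 deposited marker counts in p62+/+ mouse 1 and 13009 of 18761 in p62S351E/+ mouse 2, so this scale mostly follows Alb. Alb itself had a log2 fold change of 0.83 (adjusted p = 0.319 by edgeR). The scaling does not measure the share of hepatocytes, and the part of hepatocyte content in the differences was not tested. Of 8 markers of kidney and intestine, tissues that use parts of the cycle, 5 were at 0 in all 6 livers, among them Umod, Slc12a1, Slc34a1 and Lct, and Vil1 and Fabp2 had at most 4 counts in any liver. Apoa4, an apolipoprotein that liver can also express, had 8.83, 4.66 and 3.45 normalized counts in p62+/+ livers against 32.4, 23.9 and 17.0 in p62S351E/+ livers, without overlap (log2 fold change 2.07, adjusted p = 0.0814).

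**Figure D4:**
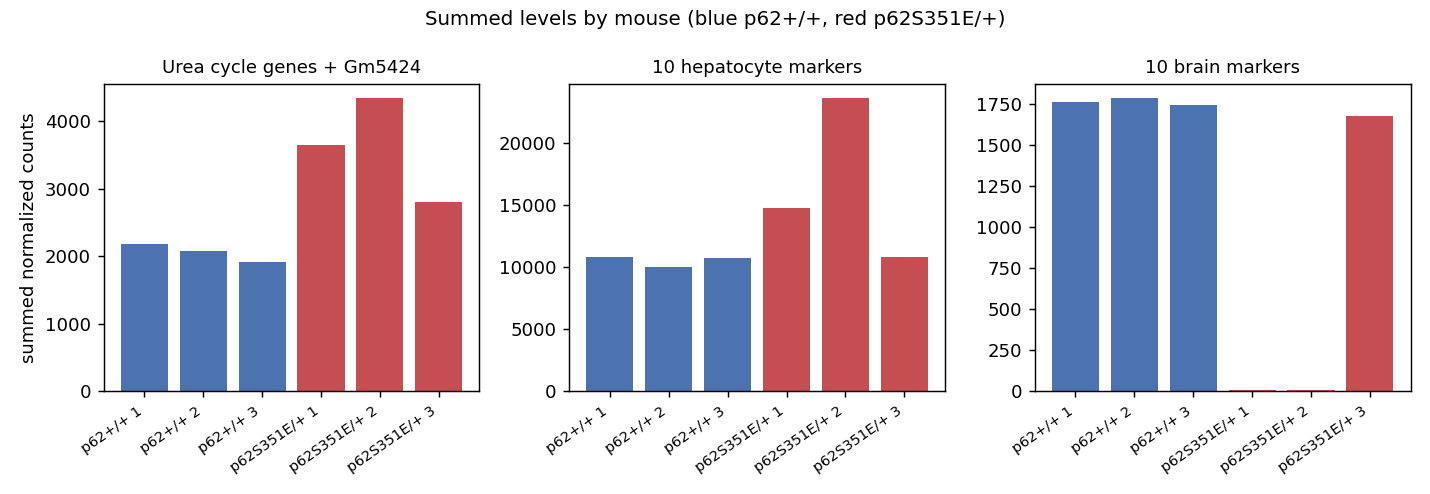
Summed normalized counts (y axes, linear, from 0) of the urea cycle genes with Gm5424 (left), of 10 hepatocyte markers (middle) and of 10 brain markers (right) in each p62+/+ (blue) and p62S351E/+ (red) liver. The urea cycle sum of p62S351E/+ mouse 3 (2807) is above the p62+/+ livers while its brain marker sum (1676) is close to theirs.

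The promoters of the members were searched for 6 short motifs. RefSeq (GRCm38.p6) windows from 250 bases before to 50 bases after the start were matched for 7 of the 10 members, with 2 windows for Slc25a15. No window was matched for Cps1, Asl and Arg1, so their promoters were not searched. p62 is known for stabilizing NRF2, a factor that binds antioxidant response elements, and the core letters of that element, TGACNNNGC, were found on neither strand of any of the 8 windows, as against 12.4% of all 32851 windows. TGACGTCA (cAMP response element, 1.79% of all windows) and TTGCNNAA (C/EBP, 10.8%) were in none of the 8 either. GGGCGG (GC box) was in 5 of 8 windows, those of Ass1, Glud1, Nags and Slc25a15, and in 35.7% of all windows. TATAAA was in the window of Got2 (13.6% of all windows) and CCAAT in that of Slc25a13 (37.4%). The letters were searched on both strands, none of the 6 motifs contains another, and a match or its lack in these windows says nothing on binding in liver. The stretch before Slc25a13, a member with nearly equal p62+/+ livers and a 2.02-fold difference, is given with its CCAAT in capitals, which begins 22 bases before the start (chr6:6217174-6217423, GRCm38.p6, minus strand, 5′ to 3′):
Slc25a13: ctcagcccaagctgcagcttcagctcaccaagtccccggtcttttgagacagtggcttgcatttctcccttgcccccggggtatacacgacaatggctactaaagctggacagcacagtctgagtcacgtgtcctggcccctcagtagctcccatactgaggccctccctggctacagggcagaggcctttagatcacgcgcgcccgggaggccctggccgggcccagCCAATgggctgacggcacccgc

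Beyond the cycle itself, 39 genes that supply, bypass or regulate it were examined in 5 lists, and 1 of them passed the test. Slc7a2 encodes a cationic amino acid transporter that takes arginine and ornithine into cells. It had 79.4, 113 and 74.3 normalized counts in p62+/+ livers against 289, 256 and 213 in p62S351E/+ livers, without overlap (log2 fold change 1.51, standard error 0.24, adjusted p = 0.0341). In p62S351E/+ mouse 3 alone the log2 fold change was 1.27 (adjusted p = 0.00085), and without that mouse it was 1.62 (adjusted p = 0.000369), so it was called in each of these 3 comparisons. With the brain markers as a covariate the log2 fold change was 1.26 and the call was lost (adjusted p = 0.106). That fit again rests almost wholly on p62S351E/+ mouse 3. In the same list, of arginine, ornithine and proline genes, 6 of 10 were tested, 1 was called higher and 0 lower (0.841% and 0.0841% of all genes), and Arg2 and Slc25a2, the second arginase and the second ornithine carrier, were listed at 0 in all 6 livers. Aldh4a1, an enzyme of proline breakdown, did not overlap between the groups (log2 fold change 0.65, adjusted p = 0.237).

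Glutamine synthetase, encoded by Glul, is the alternative route of ammonia disposal, active in hepatocytes around the central veins. Glul had 299, 297 and 272 normalized counts in p62+/+ livers against 38.1, 120 and 191 in p62S351E/+ livers, and every p62S351E/+ liver was below every p62+/+ liver (log2 fold change -1.30, standard error 0.50, adjusted p = 0.312). Astrocytes of the brain also express Glul, and the livers with the lowest Glul were the 2 with the fewest brain marker counts. In p62S351E/+ mouse 3, whose brain markers were close to the p62+/+ level, Glul was also below every p62+/+ liver. The part of brain transcripts in the Glul difference was not tested, and in p62S351E/+ mice 1 and 2 it cannot be told apart from genotype. The log2 fold change was -0.59 in p62S351E/+ mouse 3 alone (adjusted p = 0.206) and -1.86 without that mouse (adjusted p = 0.00469). With the summed brain markers as a covariate it was -0.55 (95% interval -1.53 to 0.43, adjusted p = 0.962). Fits with this covariate rest almost wholly on p62S351E/+ mouse 3 and repeat its comparison. Of the 9 genes for glutamine and ammonia, 8 were tested and 0 were called. Gls2, the liver glutaminase, and the amino acid transporters Slc38a4 and Slc38a3 lay above without overlap and had log2 fold changes of 0.75, 1.15 and 0.47. Slc1a2, a glutamate transporter of pericentral hepatocytes and astrocytes, lay below without overlap, at 207, 240 and 196 normalized counts in p62+/+ livers against 32.4, 32.8 and 180 in p62S351E/+ livers (log2 fold change -1.37, adjusted p = 0.421). It was -2.71 without p62S351E/+ mouse 3 (adjusted p = 1.31e-05), -0.24 for that mouse alone (adjusted p = 0.811) and -0.23 with the brain-marker covariate (adjusted p = 0.991).

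Of the 8 genes for transamination and aspartate supply, 7 were tested and 0 called. Slc25a12, the close relative of Slc25a13 that serves brain and muscle, had 12.8, 20.2 and 17.3 normalized counts in p62+/+ livers against 11.4, 1.26 and 6.20 in p62S351E/+ livers (log2 fold change -1.47, adjusted p = 0.303). The log2 fold changes of these 2 carriers thus had opposite signs, although neither passed the test and Slc25a12 rests on few counts. Of the 5 genes for bicarbonate, fumarate, urea and deacylation, 4 were tested and 0 called, and Aqp9, a channel for urea and glycerol, had 42.9 ± 8.20 and 95.1 ± 28.2 normalized counts without overlap (log2 fold change 1.15, adjusted p = 0.117). Of the 7 regulators, 7 were tested and 0 called, and Hnf4a (0.73) and Ppargc1a (1.03) did not overlap between the groups. By unadjusted p below 0.05, edgeR counted 3, 1, 2, 1 and 2 genes in the 5 lists in the order of glutamine, transamination, arginine, bicarbonate and regulators, where 14.6% of all genes tested were counted. The medians of the lists were 0.25, 0.10, 0.09, 0.36 and 0.35 in the same order, lower than the 0.58 of the urea cycle members.

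**Figure D5:**
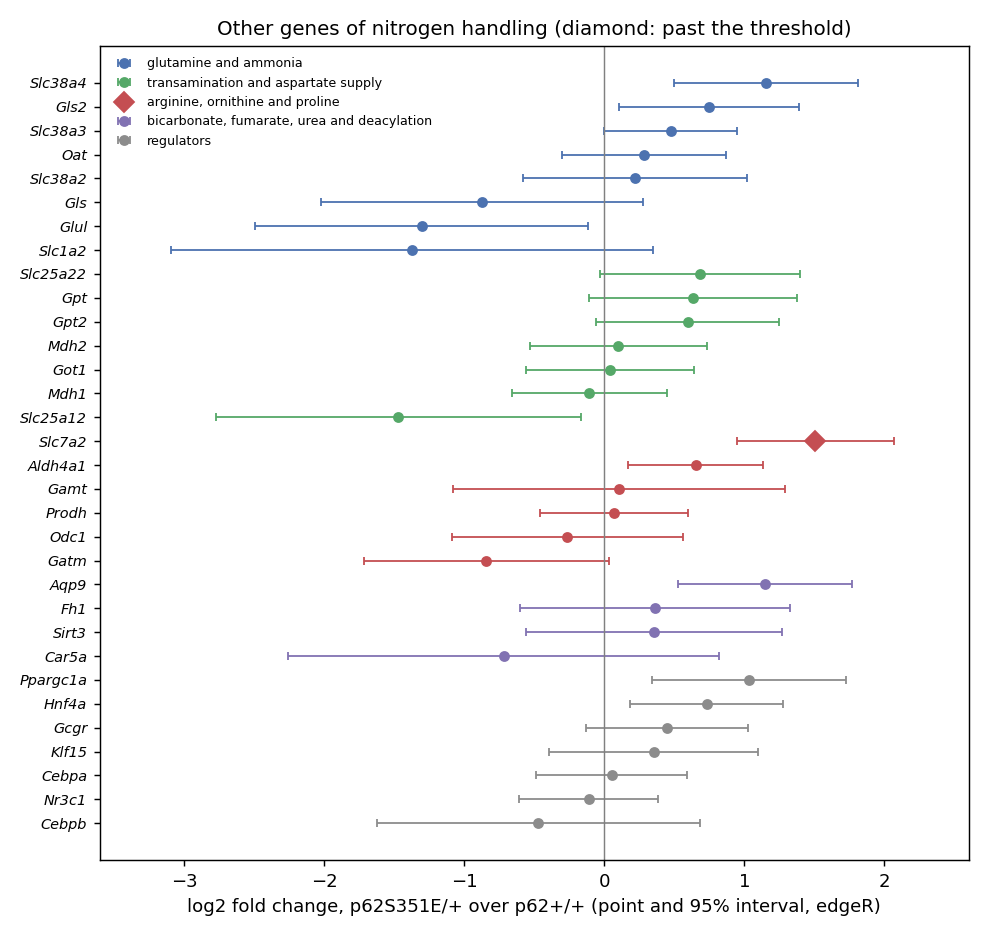
Log2 fold changes (x axis, p62S351E/+ over p62+/+; point and 95% interval from edgeR, all 6 mice) of the tested genes of 5 lists around the urea cycle (rows, coloured by list). Slc7a2 (diamond, 1.51) is the only gene past the threshold, and Glul (-1.30) and Slc25a12 (-1.47) lie to the left of 0.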

How the data were processed

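Liver RNA of 3 p62+/+ and 3 p62S351E/+ mice was sequenced as 75-base single-end reads after rRNA depletion. The authors trimmed the reads with Trim Galore, aligned them to mm10 with STAR and deposited RSEM expected counts, not normalized, for 24411 gene symbols. The annotation was not given in the sources used here, and nothing there tells whether counting used strand.

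Expected counts were rounded and tested in R 4.3.3 with edgeR 4.0.16 (filterByExpr with a minimum count of 10, TMM, quasi-likelihood with legacy set to FALSE, robust), adjusted by Benjamini-Hochberg. limma 3.58.1 (voom) and DESeq2 1.42.0 were alternatives, with other scalings and filters, a replicate block, covariates, and leaving out each mouse. Standard errors are the absolute log2 fold change over the square root of F. The labels name the 3 samples per genotype as separate samples, and p-values measure the spread between them. The per-mouse log2 ratios used a pseudocount of 1. The intervals of log2 fold changes come from the quasi-likelihood fit, as the standard errors do, and include the spread between mice. Tests were checked on simulated counts. Transcripts and positions are from GENCODE M21 (GRCm38), aligned with Biopython 1.88, and promoters from RefSeq GRCm38.p6.

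The members, lists and tests were chosen with earlier results of these data known. All members were named, with list genes that were called, that had an unadjusted p below 0.05 without overlap, or that were among the 3 most abundant of a list. Of those most abundant, Mdh1, Gpt2, Gpt, Prodh, Fh1, Sirt3, Gcgr and Cebpa had log2 fold changes between -0.11 and 0.63. Slc1a2, Apoa4, Arg2 and Slc25a2 fall outside this rule and were chosen after their values were seen. The sum of Ass1 and Gm5424 and the scaling to hepatocyte markers were chosen once the counts were known.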

Additional observations from a re-analysis of the deposited data

How the results depend on the processing

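The direction of Cps1, Arg1, Slc25a13 and Slc25a15 was above 0 under all 21 alternatives (log2 fold changes from 0.21 to 1.10, 0.46 to 1.38, 0.27 to 1.15 and 0.11 to 1.11), and that of the Ass1 and Gm5424 sum under all 20 (0.01 to 0.80). Scalings moved the median of all genes from -0.03 to -0.68 (library size only), -0.54 (hepatocyte markers) and -0.19 (library size without Rn45s, Lars2 and Mir6236). It was -0.18 by DESeq2 and -0.16 without a filter, both over 16283 genes, and -0.05 with DESeq2 size factors over the same 5945. The median of the members became -0.12 with library size only, 0.21 with the brain markers as a covariate, 0.012 with scaling to hepatocyte markers and 0.22 for p62S351E/+ mouse 3 alone; leaving out each mouse gave 0.43 to 0.72. The number of members higher was 1 by limma-voom and from 0 to 4 when each mouse was left out. The causes of these changes were not tested.

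Over all genes, 50 higher and 5 lower became 131 and 12 by limma-voom, 12 and 2 with library size only, 79 and 10 without a filter, 29 and 2 with the brain-marker covariate, 27 and 2 with Xist as a covariate and 18 and 1 at an adjusted p below 0.01. Lower genes numbered 8 by DESeq2, 8 by the legacy method, 29 with at least 10 counts in every library and 23 for p62S351E/+ mouse 3 alone, and higher genes 13 with scaling to hepatocyte markers. Leaving out each mouse gave 16 to 333 higher and 1 to 975 lower genes, the upper ends without p62S351E/+ mouse 3.

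Same-numbered mice did not deviate together (correlations 0.07, -0.09 and -0.01), though so few mice per group cannot exclude a pairing. The replicate block gave 18 higher and 1 lower gene and called no member (median 0.74, Ass1 0.97).

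The sign changed for the other members under some alternatives, none of which called them. Nags was -0.011 (DESeq2), -0.067 (limma-voom), -0.019 (legacy), -0.0030 (DESeq2 size factors), -0.0038 (upper quartile), -0.69 (library size only), -0.16 (without the 3 genes), -0.017 (no filter), -0.46 (brain markers), -0.21 (Xist), -0.58 (hepatocyte markers) and -0.46 (p62S351E/+ mouse 3 alone), and between -0.20 and 0.47 without each mouse. Glud1 was -0.60 (library size only), -0.076 (without the 3 genes), -0.16 (at least 10 counts), -0.18 (brain markers), -0.13 (Xist), -0.46 (hepatocyte markers) and -0.17 (mouse 3 alone), and between -0.039 and 0.22 without each mouse. Otc was -0.25 (library size only), -0.076 (brain markers), -0.19 (hepatocyte markers) and -0.078 (mouse 3 alone). Got2 was -0.20 and -0.078 with library size only and hepatocyte markers, and Asl -0.041 with library size only. The Ass1 row was 2.78 by limma-voom, 0.21 with Xist, 0.69 summed with Gm5424, and between -0.88 and 6.87 without each mouse.

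The 134911 to 315436 counts outside 3 genes limit Nags most, with 6 to 21 reads per liver.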
